A study of Rattus norvegicus with 45 samples.

Results

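CA3 tissue of rats that had been kept on restricted food and had reached 28 months was compared with CA3 tissue of rats fed ad libitum at 18 months, on 5 and 3 of the 45 arrays of the series. CA3 is the field of the hippocampus between the dentate gyrus and CA1. All rats were male F344xBN hybrids, and each array (Affymetrix RAE 230 2.0) held the RNA of one region of one animal. The restricted rats came from the good performers (CRO_GP, replicates 1 to 3) and the poor performers (CRO_PP, replicates 2 and 3), and the 18-month rats were the class ALMA (replicates 1 to 3). Restriction started at 14 weeks of age with 10%, went on to 25% and stood at 40% from 17 weeks onward. CRO_PP replicate 4 was left out of the comparison for its RNA quality, given below. The 6 CA3 arrays of 28-month rats fed ad libitum, 3 good performers (ALO_GP) and 3 poor performers (ALO_PP), are given side by side. The 2 groups of the main comparison differ in age and in diet, and restricted rats of 18 months were not analysed here, so the parts of age and of diet in a difference cannot be told apart. Which test of performance set these classes is not stated in the labels.

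CA3 pyramidal cells receive the mossy fibres of the dentate granule cells, excite each other through recurrent collaterals and project to CA1. The circuit is known for rapid storage and completion of memory patterns and is among the hippocampal fields studied in age-related memory decline. Lifelong restriction of calories extends life in rodents and lowers insulin and insulin-like growth factor signalling in the body. In the ageing brain of rodents, microglia and astrocytes are known to express more genes of antigen presentation and complement.

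The labelled region was checked against marker genes. Cpne4, a marker of CA3 pyramidal cells, read 500.6 to 1000 on the 8 CA3 arrays against 77.06 to 375.2 on the 8 CA1 arrays of the same classes, although the 8 dentate gyrus arrays reached 336.7 to 666. Grik4, also a CA3 marker, read 138.3 to 286.8 in CA3, 67.24 to 109.4 in CA1 and 97.1 to 198 in the dentate gyrus. Bok, a further CA3 marker, overlapped both, with 746.8 to 1050 in CA3, 460.5 to 984.3 in CA1 and 474.1 to 828.6 in the dentate gyrus. Wfs1, a CA1 marker, read 457.4 to 1408 in CA3 against 1877 to 2786 in CA1. Dsp, a dentate marker, read 28.73 to 99.99 in CA3 against 184.3 to 285.7 in the dentate gyrus, but overlapped CA1 (57.17 to 152.7). The 6 old ad libitum CA3 arrays were less clear. ALO_PP replicate 3 read 224.4 for Cpne4 and 2523 for Wfs1, both within the CA1 ranges. The others read 567 to 785.9 for Cpne4, and the median Wfs1 of the 6 was 1757. Whether CA1 tissue has a part in the comparisons with old ad libitum rats was not tested. Correlations between arrays over the tested probe sets were 0.9857 to 0.9907 within the 18-month arrays, 0.9862 to 0.9916 within the restricted arrays and 0.9691 to 0.9788 between the groups, while CRO_PP replicate 4 reached 0.9334 to 0.9449 with the 8. On that array the 3′ to 5′ ratio of the Gapdh control was 6.078, against 1.486 to 1.877 on the other restricted arrays and 2.087 to 2.252 on the 18-month arrays. The poly-A control DapX, an RNA added to the samples, read 533.9 to 660.7 on the 18-month arrays, 182.2 on CRO_GP replicate 1, and 2.781 to 5.804 on the other 4 restricted arrays. The Gapdh ratio and DapX thus did not overlap between the 2 groups compared. The 3′ to 5′ ratio of the Actb control did, with 8.121 to 9.989 at 18 months and 8.21 to 12.56 in restricted rats. What sets the Gapdh ratio and DapX apart and the group cannot be told apart in this comparison. On the 6 old ad libitum arrays DapX read 147.5 to 184.8 and the Gapdh ratio was 1.752 to 1.918, both below the 18-month arrays. DapX thus also set 4 of the 5 restricted arrays apart from the old ad libitum arrays, while their Gapdh ratios overlapped. Whether this has a part in the comparisons with old ad libitum rats was not tested. ALMA replicates 1 and 2 carry the same animal code in the labels, so results are also given without replicate 2. Under that setting 1733 genes passed the test, against 2465 with all 8 arrays and 1086 with CRO_PP replicate 4 added. Of single genes described below, 95 of the 110 past the test kept their call without ALMA replicate 2. RNA amounts in bulk tissue do not separate fewer cells of a type from less RNA per cell.

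Most genes of the restricted old rats lay near the 18-month level when near was set by a margin of 1.5-fold. Values were analysed as log2(value + 16), and differences below are restricted minus 18-month on that scale with the SE of limma (5 and 3 arrays). Near means that the 95% interval of the difference stayed within 1.5-fold in both directions, and far means an adjusted p under 0.05 with a difference over 2-fold. Among 9943 genes, each read from its brightest probe set, 7795 were near (78.4%), and 2465 passed the test (24.8%). Of these, 1546 were higher (15.5%) and 919 lower (9.24%), and 956 passed the test but still lay within the near margin. Far genes numbered 113 higher (1.14%) and 2 lower (0.0201%). The remaining 639 genes were neither near nor past the test. When the 1.5-fold margin was narrowed, 2764 of the 9943 genes were near, a minority. That most genes were near thus depends on the margin. The 5 restricted and the 3 18-month arrays did not overlap at all in 3151 genes (31.7%). Over all 18625 probe sets tested, 4168 passed (22.4%). The median difference over genes was 0.01. The split depended on scaling: higher genes made up 62.2% of the calls over probe sets with the values as deposited, 54.4% after quantile normalization and 40.2% after each array was centred on its median.

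**Figure D1:**
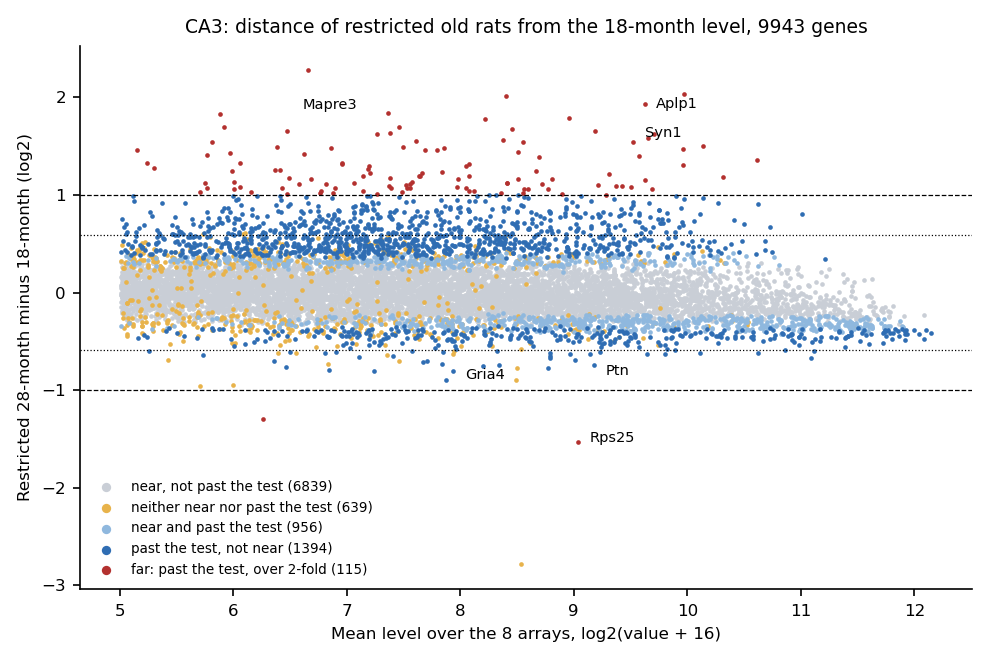
Difference between restricted 28-month and 18-month CA3 (log2, vertical axis) against the mean level over the 8 arrays (log2, horizontal axis) for 9943 genes, 1 point per gene, with dotted lines at the 1.5-fold margin and dashed lines at 2-fold. The 115 far genes are almost all above the upper dashed line, and the brightest genes lie below 0 more often than the others.

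The authors also deposited a second signal, from the program dChip, for the same arrays. ALMA and restricted arrays stand in different dChip tables, so the difference was taken through the 6 ad libitum arrays of 28 months that both tables hold, without counting the error of that step. Of the 115 far genes, 114 kept their sign in the dChip signals, 109 passed the test there in the same direction, and 52 also differed by over 2-fold. But 11 of the 115 were near with dChip. A further 97 genes were far with dChip and not in the series values, in both directions, such as Medag (2.43) and Tmem38b (-2.46). Of the 1546 higher genes 1112 passed in the same direction with dChip, but of the 919 lower genes only 256. Both signals put 6863 of the 7795 near genes near. The higher genes were thus carried by both sets of values far more often than the lower ones, and the dChip result is given below wherever it made or ended a call, or was over 1.5 times smaller or larger than a difference past the test. A dimmer probe set of the same gene could also differ: it did not pass in Cacnb1 (0.18), Homer3 (0.27), Mvk (0.38), Ndufc2 (0.08), Gja1 (-0.01), Slco1a4 (-0.01), Picalm (0.02) or RT1-Ba (0.40), nor did either of 2 in Slc1a3 (-0.15 and 0.11) and Kcnc2 (0.19 and -0.02) or any of 3 in Uba6 (-0.26, -0.38 and -0.21). Another dimmer probe set of RT1-Ba did pass, at 0.63.

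**Figure D2:**
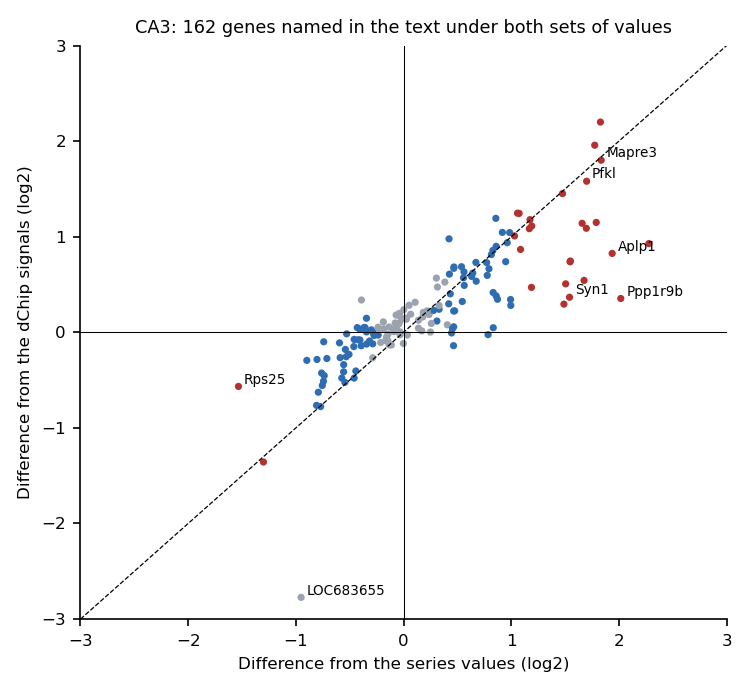
Restricted minus 18-month difference (log2) of 162 genes in the series values (horizontal) and in the dChip signals joined through the old ad libitum arrays (vertical), with the line of equality dashed. Far genes are red, other genes past the test blue and the rest grey; Mapre3 (1.84 and 1.80) lies near the line and Ppp1r9b (2.02 and 0.35) well below it.

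Of the largest rises, 3 that were called present on all 8 arrays and far under both signals were Mapre3, Ctxn1 and Pfkl, and of the largest falls, 3 that passed under both were Ufl1, Pfdn5 and Gas5. Their promoters are shown to give the sequence context of genes that moved apart, from 250 bases before to 50 bases after the annotated start (RefSeq, GRCr8), 5′ to 3′ on the gene's strand, with every CG dinucleotide in capitals. They lie at chr6:31244854-31245153 (minus strand, Mapre3), chr12:7409870-7410169 (minus, Ctxn1), chr20:10663715-10664014 (plus, Pfkl), chr5:43791633-43791932 (minus, Ufl1), chr7:135330114-135330413 (plus, Pfdn5) and chr13:75836713-75837012 (plus, Gas5).
Mapre3: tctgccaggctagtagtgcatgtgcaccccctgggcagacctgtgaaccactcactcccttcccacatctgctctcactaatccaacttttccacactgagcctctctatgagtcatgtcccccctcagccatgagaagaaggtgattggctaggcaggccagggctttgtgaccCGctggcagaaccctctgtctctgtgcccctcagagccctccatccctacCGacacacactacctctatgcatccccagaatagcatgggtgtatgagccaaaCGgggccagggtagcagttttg
Ctxn1: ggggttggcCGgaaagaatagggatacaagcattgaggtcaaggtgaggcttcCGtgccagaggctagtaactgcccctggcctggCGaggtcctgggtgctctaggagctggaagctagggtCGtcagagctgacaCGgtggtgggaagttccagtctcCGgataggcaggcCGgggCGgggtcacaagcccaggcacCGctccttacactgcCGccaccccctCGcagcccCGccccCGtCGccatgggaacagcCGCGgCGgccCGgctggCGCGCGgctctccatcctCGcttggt
Pfkl: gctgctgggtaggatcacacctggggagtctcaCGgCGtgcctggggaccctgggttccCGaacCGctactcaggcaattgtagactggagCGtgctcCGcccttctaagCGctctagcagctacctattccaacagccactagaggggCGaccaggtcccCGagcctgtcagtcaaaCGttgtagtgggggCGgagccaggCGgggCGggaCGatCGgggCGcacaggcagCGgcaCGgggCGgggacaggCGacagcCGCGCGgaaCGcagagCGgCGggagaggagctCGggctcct
Ufl1: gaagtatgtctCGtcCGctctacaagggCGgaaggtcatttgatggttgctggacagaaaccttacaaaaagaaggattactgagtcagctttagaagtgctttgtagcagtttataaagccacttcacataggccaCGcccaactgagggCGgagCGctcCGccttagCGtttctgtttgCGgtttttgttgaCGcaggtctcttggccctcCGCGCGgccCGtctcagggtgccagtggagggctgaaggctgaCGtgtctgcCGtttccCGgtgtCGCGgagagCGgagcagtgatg
Pfdn5: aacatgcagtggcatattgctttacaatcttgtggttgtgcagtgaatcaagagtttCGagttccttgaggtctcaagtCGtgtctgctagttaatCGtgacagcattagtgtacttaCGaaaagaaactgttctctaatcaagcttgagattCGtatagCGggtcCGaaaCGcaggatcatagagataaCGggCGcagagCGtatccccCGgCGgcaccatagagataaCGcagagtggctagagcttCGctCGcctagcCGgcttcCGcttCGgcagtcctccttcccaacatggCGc
Gas5: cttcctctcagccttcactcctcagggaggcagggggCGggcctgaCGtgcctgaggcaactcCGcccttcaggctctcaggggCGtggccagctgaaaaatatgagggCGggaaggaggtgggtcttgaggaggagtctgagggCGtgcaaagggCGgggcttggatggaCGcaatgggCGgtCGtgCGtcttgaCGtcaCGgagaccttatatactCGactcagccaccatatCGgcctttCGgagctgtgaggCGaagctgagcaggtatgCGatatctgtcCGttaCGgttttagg

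Ctxn1 held 22 CG dinucleotides in this window and Pfkl 27, Ufl1, Pfdn5 and Gas5 held 20 each, and Mapre3 held 3. Windows with at least 20 made up 24.2% of all 33469 promoters in the table and 57.2% of the 8040 tested genes that matched it. Among the matched genes, 61.9% of 1243 higher, 60.4% of 752 lower and 56.2% of 5569 near genes that did not pass the test had at least 20. The median G and C content was 63.3% in higher, 60.7% in lower and 61% in those near genes. No test was run on these shares.

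The 12 largest rises included several genes known from neurons. Ppp1r9b encodes neurabin-2 (spinophilin), a scaffold of dendritic spines that binds protein phosphatase 1. It read 138.5, 107.8 and 131 at 18 months and 510.3, 597.9, 578.3, 569.6 and 524.7 in restricted rats, in the order CRO_GP 1 to 3, then CRO_PP 2 and 3. All 5 restricted arrays stood above the old ad libitum range of 320.8 to 483 (median 359.2). The difference was 2.02 ± 0.09 here (4.05-fold, adjusted p = 2.58e-06) and 0.35 with dChip.

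Epn1 (epsin 1, an adaptor of clathrin-mediated endocytosis) passed the test with 16.75, 12.02 and 41.99 against 153.6, 193.1, 229, 117.6 and 158.2, and since it was called absent on all 3 arrays of 18 months no size of its rise is given. Aplp1, a neuronal relative of the amyloid precursor protein, read 295.3, 390.1 and 299.6 and then 1300, 1314, 1334, 1239 and 1276, a difference of 1.94 ± 0.10. The restricted arrays were tight and all above the old ad libitum range of 554.2 to 1111 (median 692.6). With dChip the rise of Aplp1 was 0.83.

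Mapre3 (EB3, a protein at growing microtubule ends in neurons) read 69.79, 46.55 and 60.86 at 18 months and 234.1, 278, 270.3, 249.8 and 220.2 in restricted rats. The difference was 1.84 ± 0.12 (adjusted p = 8.88e-06), and dChip gave 1.80. Ptk2b (Pyk2, a calcium-activated tyrosine kinase of synapses) went from 109, 128.9 and 129.4 to 464.2, 426.5, 559.4, 386.2 and 462.7. That is 3.42-fold, with 1.96 by dChip on the log2 scale.

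A further 6 of the 12 largest rises were Scaf1 (a protein that binds RNA polymerase II), Ctxn1 (cortexin 1, a small membrane protein of cortical neurons, 1.79), Pfkl (liver-type phosphofructokinase, 1.70), Mta1 (a subunit of the NuRD chromatin complex, 1.70), Ddit4 (REDD1, a stress-induced inhibitor of mTORC1, 1.68) and Eef1a2 (the translation elongation factor of neurons and muscle, 1.66). Ctxn1 had values of 204.6, 216.2 and 217.3 against 716.2, 854.4, 844.8, 732.5 and 735, and Scaf1, called absent on all arrays of 18 months and so given with no size, 8.966, 9.321 and 14.13 against 62.94, 89.14, 82.49, 72.92 and 89.54. The dChip difference was 0.54 for Ddit4, 1.15 for Ctxn1 and 1.09 for Mta1. Mta1 read 16.45, 9.095 and 13.89 at 18 months, about as low as the 16 added to each value, so the size of its rise depends on that choice. Mapre3, Ptk2b, Pfkl and Eef1a2 were called present on all 8 arrays.

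**Figure D3:**
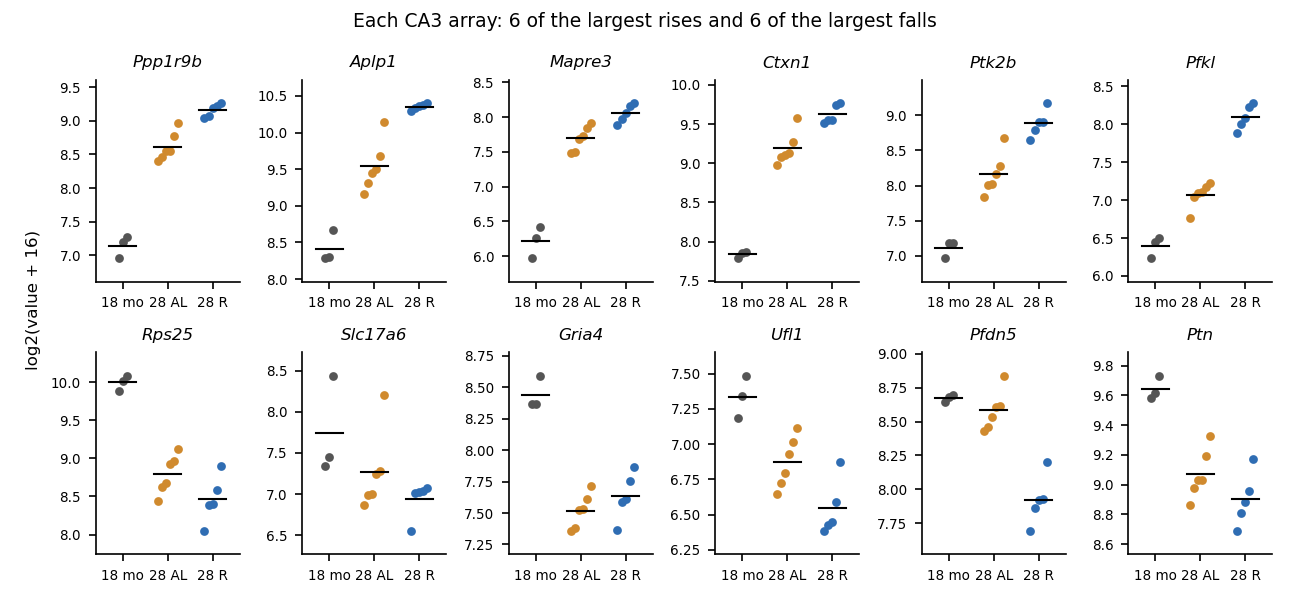
Level of 12 genes (log2 of value + 16, a scale per panel) on each CA3 array of 18-month rats (18 mo, 3), old ad libitum rats (28 AL, 6) and restricted old rats (28 R, 5), with class means as bars. In the upper row, 6 of the largest rises, the restricted arrays lie above all 18-month arrays; in the lower row, 6 of the largest falls, they lie below them.

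Falls were smaller in the series values. With dChip, other genes fell by over 2-fold and passed, such as Tmem38b (-2.46, against -0.11 in the series values). In the series values only 2 genes were far below the 18-month level. Of these, Tmc4 (a member of the transmembrane channel-like family) was called absent on all 8 arrays, so that no size or direction is read from it. It is named because the count is small, after its value was seen. The other was Rps25, a protein of the small ribosomal subunit, with 1021, 1071 and 931.2 at 18 months and 317.8, 323.1, 460.2, 369 and 249.3 in restricted rats. Its difference was -1.53 ± 0.16 (adjusted p = 1.19e-04), and old rats fed ad libitum, at 332.3 to 542.2 (median 431.8), were low as well. With dChip, Rps25 fell by 0.57 on the log2 scale.

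Gria4, an AMPA receptor subunit, read 313.9, 313.8 and 370.2 at 18 months, 176.7, 179.5, 149.1, 199.6 and 217.6 in restricted and 148.3 to 193.6 (median 168.2) in old ad libitum rats. The difference was -0.80 ± 0.12 here and -0.28 with dChip (adjusted p = 0.0902), where the call was lost. Ufl1, the ligase that attaches the ubiquitin-like protein UFM1, fell from 129.3, 163.3 and 145.8 to 70.02, 101.4, 80.36, 67.63 and 71.06. Its difference was -0.79 ± 0.12, and -0.63 with dChip.

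Pfdn5, a subunit of the prefoldin chaperone, read 384.3, 399.6 and 394.3 and then 226.9, 277.8, 226.5, 216.7 and 191.1, a difference of -0.75 ± 0.11. Old ad libitum rats, at 329.4 to 442.1 (median 364.3), spanned the 18-month values. Gas5, a long non-coding RNA that hosts small nucleolar RNAs, fell by 0.74 from 498, 399.6 and 400.7 to 208.6, 308.1, 274.6, 243.2 and 229.8, while a second probe set of it gave -0.38 and did not pass (adjusted p = 0.0674). Ptn (pleiotrophin, a heparin-binding growth factor) went from 835.6, 767.2 and 750.4 to 397.4, 455.3, 433.2, 480.4 and 559.9, a difference of -0.74, with -0.10 and no call by dChip.

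The other large falls were Etl4 (-0.90), Hbb (beta globin, -0.77), Nradd (a membrane protein with a death domain, -0.76), Pdrg1 (-0.74), Uba6 (an enzyme that activates ubiquitin, -0.71, -0.27 with dChip) and Slc17a6 (the vesicular glutamate transporter VGLUT2, -0.81). Slc17a6 rested on 1 bright array: its values were 331.9, 146.6 and 159.7 at 18 months and 78.02, 113, 115.6, 113.9 and 118.9 in restricted rats. Without ALMA replicate 1 it was -0.46 and did not pass. Nradd lost its call in 14 of 23 other settings, among them without ALMA replicate 2 (-0.90) or 3 (-0.45), and a second probe set of it gave 0.20. With dChip, Etl4, Slc17a6, Nradd and Pdrg1 did not pass.

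Genes of the synaptic vesicle moved in both directions. Of 33 members tested, 9 were higher (27.3%, beside 15.5% of all genes) and 5 lower (15.2%, beside 9.24%), and 18 were near (54.5%, beside 78.4%). These shares over all genes hold for the other lists below too. Syn1 (synapsin 1, which tethers vesicles in the terminal) read 355.4, 375.6 and 354.6 and then 1164, 1031, 1230, 1046 and 966.7, a difference of 1.54 ± 0.09. A second probe set of Syn1 gave 1.15 and dChip 0.37. Syt5, a calcium sensor of the synaptotagmin family, rose by 1.06, and was called with dChip too.

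Syn2 and Syt4 of the same list were near, at -0.04 (interval -0.22 to 0.14) and -0.16 (-0.33 to 0.01). The 2 dimmer probe sets of Syn2 passed at 0.59 and 0.36, against the brightest one used here. In the postsynaptic density 4 of 23 members were higher (17.4%), 0 lower and 17 near (73.9%). After quantile normalization 4 were higher and 2 lower, and after median centring 4 and 4. Shank3, a master scaffold of excitatory synapses, rose by 0.87 (dChip 0.35). Dlg4 (PSD-95), called absent on the 18-month arrays, read 34.1, 32.88 and 33.24 there and 56.49, 65, 94.93, 79.08 and 76.55 in restricted rats. Homer3, which links metabotropic receptors to calcium stores, rose by 0.79. Gphn (gephyrin, the scaffold of inhibitory synapses) was near at 0.18 (-0.00 to 0.36), and so was Nlgn1 (neuroligin 1) at 0.24 (0.06 to 0.42).

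Among 17 glutamate receptor genes 2 were higher (11.8%), 2 lower (11.8%) and 9 near (52.9%). Grik5, a kainate receptor subunit, read 109.2, 89.67 and 121.9 at 18 months and 314.7, 272.7, 339.4, 343 and 357 in restricted rats, a difference of 1.48 ± 0.11 that dChip gave as 1.45. Old ad libitum rats lay between, at 188.7 to 265.2 (median 220.9). Grik2 (-0.00, interval -0.16 to 0.16) and Gria3 (0.14, -0.05 to 0.32) were near, although a dimmer probe set of Gria3 passed at -0.53. Of 11 GABA receptor genes 1 was higher (9.09%), 2 lower (18.2%) and 9 near (81.8%). These calls were lost after quantile normalization. Gabrb1, a beta subunit of the GABA-A receptor, was lower (-0.30) within the near margin and had 0.03 and no call with dChip, and Gabbr2, a subunit of the GABA-B receptor, was near at 0.05 but passed with dChip (0.28).

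Of 40 genes of calcium signalling 12 were higher (30%), 3 lower (7.5%) and 27 near (67.5%). Of 35 potassium and sodium channel genes 9 were higher (25.7%), 3 lower (8.57%) and 21 near (60%). Cacnb3, a beta subunit that brings calcium channels to the membrane, went from 81.25, 86.3 and 83.44 to 239.6, 290.5, 297.4, 275.8 and 277.6 (1.55 ± 0.08, dChip 0.75). Cacng2 (stargazin, which carries AMPA receptors to synapses) rose by 1.19 and Cacnb1 by 0.99, both with a dChip difference over 1. Kcnip2, a calcium sensor of Kv4 channels, rose by 0.67. Ryr3 (-0.13), Atp2b1 (-0.07), Kcnd2 (-0.09) and Kcnn2 (0.03) were near.

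In glycolysis, 4 of 21 genes were higher (19%), 3 lower (14.3%) and 17 near (81%). Pfkl read 59.15, 70.99 and 74.93 at 18 months and 219.8, 239.9, 294.1, 283.7 and 254.9 in restricted rats, 3.25-fold, and the old ad libitum rats 93.07 to 133.4 (median 121.7). Hk1 (hexokinase 1, the main brain form) rose by 0.99 (dChip 0.34) and Pdk2, a kinase that restrains pyruvate dehydrogenase, by 0.96 (1.89 in a dimmer probe set). The other phosphofructokinases, Pfkp and Pfkm, were near at -0.07 (-0.22 to 0.09) and -0.04 (-0.21 to 0.13), though Pfkm passed with dChip (0.18) and 1 of its 2 dimmer probe sets passed at 0.47.

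In oxidative phosphorylation 1 of 66 genes was higher (1.52%), 18 were lower (27.3%) and 57 near (86.4%), with a median of -0.16. After quantile normalization 4 were higher and 7 lower, and with dChip 9 were higher and 2 lower. Uqcrc2, a core subunit of complex III, fell from 2290, 2477 and 2396 to 1697, 1549, 1501, 1603 and 1564, a difference of -0.59 ± 0.07 (dChip -0.27, adjusted p = 0.0119). Uqcrh (-0.46) and Ndufc2 (-0.42) fell here and did not pass with dChip, and Ndufb5 and Ndufs1 of complex I were near at -0.13 and -0.18. A second probe set of Uqcrc2 gave 0.03.

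Ucp2, an uncoupling protein of the inner mitochondrial membrane, read 146, 257 and 222.1 and then 396.1, 417.7, 665.3, 521.1 and 426.4. Its difference was 1.17 ± 0.19 (1.08 with dChip), and old ad libitum rats, at 224.4 to 443.7 (median 298.5), overlapped both groups. Among 21 genes of fasting, fat oxidation and ketone use 2 were higher (9.52%), 3 lower (14.3%) and 16 near (76.2%). Bdh1, which interconverts ketone bodies, passed at 0.33 but lost its call in 9 of the 23 other settings, and Angptl4, a fasting-induced inhibitor of lipoprotein lipase, fell by 0.46. Sirt3, a mitochondrial deacetylase, was near at -0.09.

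Of 23 genes of the insulin and IGF pathway 6 were higher (26.1%), 1 lower (4.35%) and 16 near (69.6%). Igf1r, the receptor of insulin-like growth factor 1, read 86.65, 94.93 and 83.14 at 18 months and 178.2, 182.6, 196.8, 187.8 and 159.8 in restricted rats, all above the old ad libitum range of 111.6 to 136.9 (median 119.9). The difference was 0.92 ± 0.09 (adjusted p = 6.92e-05, dChip 1.04). Tsc2, which holds mTORC1 in check, rose by 0.77, and Igf2r by 0.31 within the near margin and without a dChip call. Ddit4, which the list also holds, was described above.

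Cholesterol synthesis had 6 of 26 genes higher (23.1%), 3 lower (11.5%) and 20 near (76.9%). Scap, the escort of the SREBP transcription factors, rose by 0.56 and Mvk (mevalonate kinase) by 0.56, and dChip called both. Hmgcs1 was lower by 0.29 within the near margin, a call that ended in 11 other settings, dChip among them, and Insig2 was near at -0.15.

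Ribosomal protein genes were mostly lower in the series values, though not with dChip, and mostly near at the same time. Of 67 tested, 47 were lower (70.1%, against 9.24% of all genes) and 0 higher, and 51 lay within 1.5-fold, with a median of -0.32. Rpl35a read 2834, 2846 and 2910 at 18 months and 2119, 1965, 1753, 1917 and 1724 in restricted rats, a difference of -0.59 ± 0.09 (-0.11 and no call with dChip), and Rps14 fell by 0.54, also without a dChip call. In old rats fed ad libitum Rpl35a had 2297 to 2923 (median 2768), and the median of the 67 genes was -0.03. The group's change depended on the processing. After quantile normalization 11 were lower and 0 higher (median -0.10), with dChip 1 was lower and 2 were higher (median 0.02), and with CRO_PP replicate 4 included 9 were lower. Rpl7a (-0.37) and Rpl22 (-0.34) had dChip differences of 0.05 and 0.00.

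Ribosomal transcripts are among the brightest on the array. In the brightest of 5 bins of genes by mean level, 10.8% were higher and 24.1% lower (median -0.12), and in the middle bin 20.6% were higher and 6.59% lower (median 0.05). Whether this relation to level has a part in the ribosomal and oxidative phosphorylation counts was not tested.

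Of 33 proteasome genes 32 were near (97%), 9 lower (27.3%) and 1 higher (3.03%). Psmb7 rose by 0.47, Psmd14 and Psma6 were lower by 0.34 and 0.24 (neither passed with dChip) and Psmc1 was near at -0.16. A dimmer probe set of Psmd14 passed at 0.57, in the other direction. Chaperones had 8 of 36 higher (22.2%), 6 lower (16.7%) and 24 near (66.7%). Hyou1, a chaperone of the endoplasmic reticulum, rose by 1.55 (0.74 with dChip) and was called present on 1 of the 3 arrays of 18 months. Hsf1, the master factor of the heat shock response, rose by 0.83 (0.42) and Hspa4 by 0.83 (0.05 and no call with dChip). Calr passed at 0.28 within the near margin and Dnajb1 was near at -0.03.

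**Figure D4:**
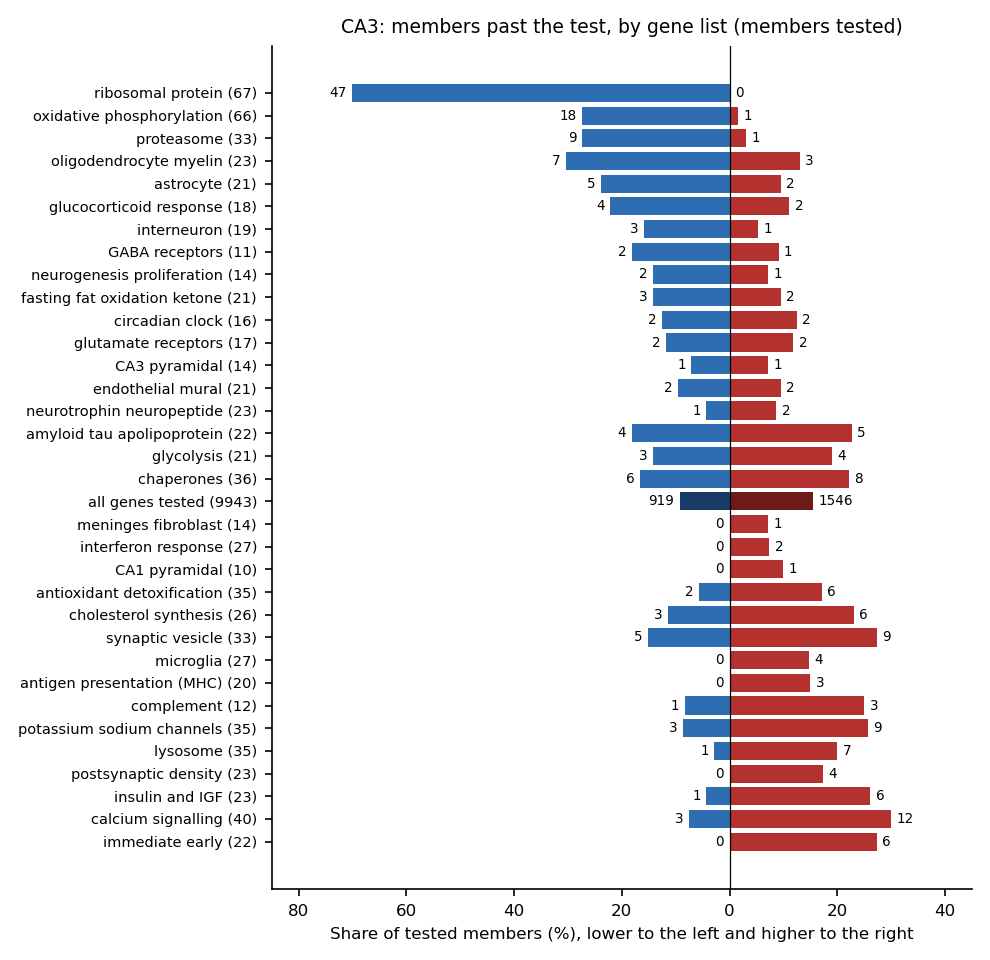
Share of the tested members of each gene list that were lower (blue, left) or higher (red, right) in restricted 28-month than in 18-month CA3, in percent, with the number of genes at each bar end and the number tested in brackets; lists with under 10 tested members are left out. Ribosomal protein genes stand at the lower end with 47 of 67 lower, beside 9.24% of all 9943 genes, and the calcium signalling list has 12 of 40 higher, beside 15.5%.

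Of 20 genes of antigen presentation 3 were higher (15%, beside 15.5% of all genes), 0 lower and 13 near (65%), with a median of 0.20. The 3 were chains of the class II complex or its partner. RT1-Bb, a class II chain, read 81.48, 107 and 81.9 at 18 months and 163.2, 285.8, 211.2, 159.3 and 234.1 in restricted rats, with no overlap. Its difference was 1.07 ± 0.17 (adjusted p = 0.00181). Cd74, the invariant chain, went from 415.7, 605.8 and 375.5 to 709.1, 1014, 898.7, 721.7 and 898.8 (0.86 ± 0.16), and RT1-Ba from 552.5, 812.3 and 567 to 752, 1234, 1022, 779.4 and 928.1 (0.54, adjusted p = 0.0476). RT1-Ba overlapped between the groups and lost its call in 14 other settings.

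Old rats fed ad libitum are set beside these from 1 fit of all 14 arrays, in which both contrasts use the same 3 arrays of 18 months. Their RT1-Bb read 124.7 to 969.6 (median 245.4), a difference from 18 months of 1.49 ± 0.42, and their Cd74 633.1 to 3154 (median 1182), 1.43 ± 0.33. The highest values of all 3 class II genes in that class came from 1 array, ALO_GP replicate 1, with 969.6 for RT1-Bb and 3154 for Cd74. Restricted minus ad libitum at 28 months was -0.41 ± 0.36 for RT1-Bb (adjusted p = 0.445) and -0.57 ± 0.28 for Cd74 (0.163), which did not pass. In this fit, whose spread includes the ad libitum arrays, 11 of the 110 genes of restricted rats lost their call against 18 months, namely RT1-Bb, Cd74, RT1-Ba, C1qa, Tyrobp, Irf1, Lgals3bp, Grn, Hbb, Hbb-b1 and Bdh1.

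Of 27 microglial genes 4 were higher (14.8%), 0 lower and 20 near (74.1%), beside 15.5%, 9.24% and 78.4% of all genes. Csf1r, the receptor that microglia need to survive, read 170.5, 170 and 165.3 and then 284.7, 352.9, 328, 296.5 and 337.7 (0.86 ± 0.09, dChip 0.38). C1qa, a complement chain made by microglia, went from 448.4, 603.4 and 491 to 823.6, 797.1, 793.2, 811.5 and 803.1 (0.64 ± 0.10), and Tyrobp, a signalling adaptor, rose by 0.47. Fcgr2a, an Fc receptor, was near the 18-month level with 309, 321.4, 318.2, 283.4 and 291.3 in restricted rats against 324, 367.1 and 341.1 (-0.17, interval -0.34 to 0.01), whereas old ad libitum rats read 416.4 to 796.7 (median 428.6). Restricted minus ad libitum at 28 months was -0.63 ± 0.13 for Fcgr2a (adjusted p = 0.00451). The summed level of the 27 markers was 6996 to 7958 at 18 months, 7783 to 8552 in restricted and 7313 to 14830 in old ad libitum rats. Among old ad libitum rats, Csf1r, C1qa, Tyrobp and Fcgr2a were all highest on ALO_GP replicate 1. C1qa read 2608 there, against a class median of 953.3.

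Bst2 (tetherin) and Ifi27 (0.00, but 0.24 and a call with dChip), both induced by interferon, were near in restricted rats. Bst2 read 44.22, 37.62 and 39.94 at 18 months, 44.05, 54.09, 45.33, 45.97 and 49.04 in restricted and 61.54 to 103.8 (median 76.41) in old ad libitum rats, so the restricted arrays were all below the ad libitum ones. Its restricted difference was 0.17 (interval -0.01 to 0.35), and restricted minus ad libitum at 28 months was -0.52 ± 0.10 (adjusted p = 0.0022). Of 27 interferon-response genes 2 were higher (7.41%, beside 15.5% of all genes), Irf1 (0.43) and Lgals3bp (0.56), 0 lower and 21 near (77.8%). Both were among the genes that lost their call in the fit of 14 arrays. B2m, the light chain of class I, was near at -0.24 (-0.42 to -0.05), with 1984, 1911, 1775, 1735 and 1823 against 2105 to 3365 (median 2459) in old ad libitum rats, and Psme2 at -0.21. In complement 3 of 12 were higher (25%), 1 lower (8.33%) and 8 near (66.7%), with Serping1 (the C1 inhibitor) at 0.95, C1qc near at 0.30 (0.57 and a call with dChip) and Cd59b lower by 0.27 within the near margin and without a dChip call.

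**Figure D5:**
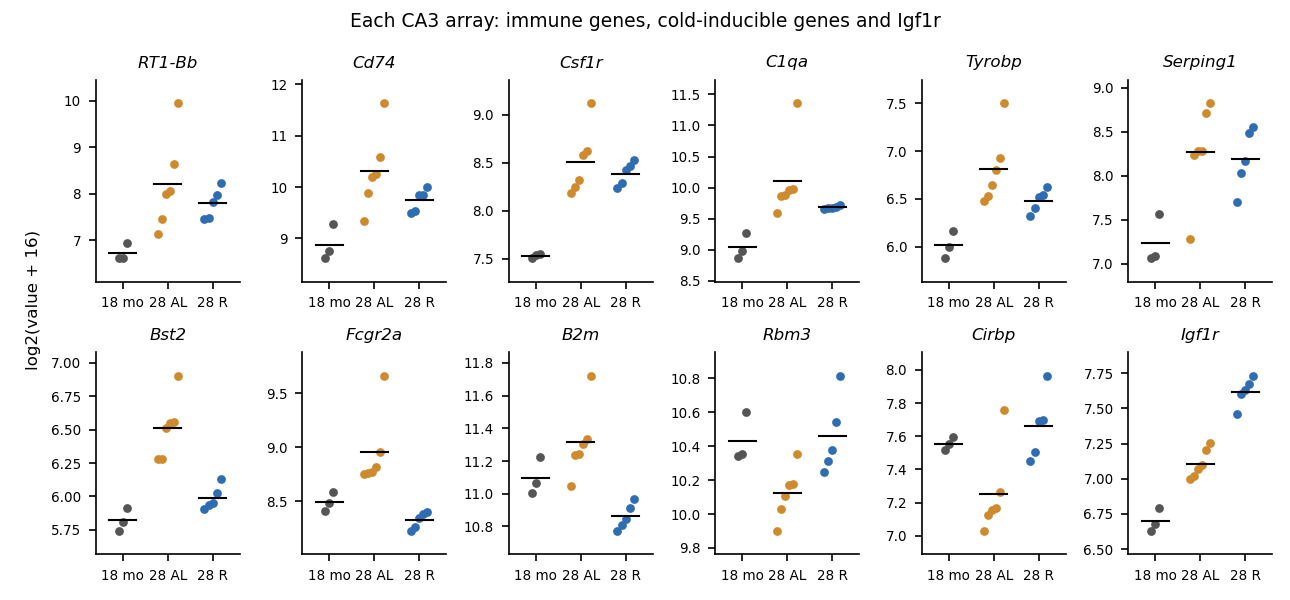
Level of 12 genes (log2 of value + 16, a scale per panel) on each CA3 array of 18-month (18 mo, 3), old ad libitum (28 AL, 6) and restricted old rats (28 R, 5), with class means as bars. RT1-Bb, Cd74, Csf1r and C1qa of restricted rats lie above 18 months, Bst2, Fcgr2a, Rbm3 and Cirbp are near it, and Igf1r is above both other classes.

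Oligodendrocyte and myelin genes went both ways. Of 23 tested, 3 were higher (13%), 7 lower (30.4%) and 7 near (30.4%), and with dChip 6 were higher and 2 lower. Sox10, the lineage's transcription factor, read 96.07, 80.76 and 77.62 and then 160.6, 253.3, 251.6, 195.3 and 207.2 (1.17 ± 0.14, 1.18 with dChip), and Mag, a myelin glycoprotein, 211.4, 256.8 and 197.5 and then 410.8, 447.1, 520.1, 402.3 and 511.6 (1.00, 0.28). Pdgfra, the receptor of oligodendrocyte progenitors, fell by 0.56 (-0.34 with dChip), and Cspg4 (NG2), of the same cells, rose by 0.42. Gpr37 was near at 0.02 (-0.20 to 0.25), with 873.9, 998, 832.5, 871.8 and 980.3, while old ad libitum rats read 506.7 to 863.1 (median 649.3). Cnp was near at -0.19 in its brightest probe set, and another passed at 0.64. The summed level of 24 markers was 26130 to 30270 at 18 months, 21210 to 23240 in restricted and 19090 to 26000 in old ad libitum rats, with no overlap between the first 2 classes.

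Of 21 astrocyte markers 17 were near (81%, beside 78.4% of all genes), 2 higher (9.52%) and 5 lower (23.8%). After quantile normalization 3 were higher and 0 lower, and with dChip 5 were higher and 0 lower. Slc1a3 (the glutamate transporter GLAST, -0.40), Ndrg2 (-0.43) and Gja1 (connexin 43, -0.36) were lower here and had dChip differences of 0.03, 0.05 and 0.05. Mlc1 was near at -0.04. The summed level of the 21 markers was 43370 to 43740 at 18 months and 35540 to 40170 in restricted rats.

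The lists of other cell types and neighbouring fields are read beside 15.5% higher and 9.24% lower over all genes. Both globin genes tested were lower, Hbb with 746.6, 525.2 and 536.4 at 18 months and 356.4, 319.3, 289.8, 345.9 and 410.7 in restricted rats, and Hbb-b1 at -0.54 without a dChip call, and the summed blood markers read 605 to 857.3 and 361.4 to 483.5. Of 21 endothelial and mural genes 2 were higher (9.52%) and 2 lower (9.52%), among them Eng (endoglin, 0.78, -0.02 with dChip) and Slco1a4, a transporter of the blood-brain barrier (-0.56, no dChip call). Choroid plexus had 0 of 7 in either direction, with sums of 495.6 to 4556 and 230.2 to 3439. The meninges and fibroblast list had 1 of 14 higher (7.14%: Fbln1, 0.45, no dChip call) and 0 lower. Of 19 interneuron genes 1 was higher (5.26%), Slc32a1 (the vesicular GABA transporter, 0.55, 0.32 with dChip). A further 3 were lower (15.8%), among them Kcnc2 (-0.39) and Cort (cortistatin, -0.53), neither called with dChip. The part of these cell types in the other results was not tested.

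Of 14 CA3 markers 1 was higher (Homer3, 7.14%), 1 lower (7.14%) and 9 near (64.3%). Bok read 746.8, 967 and 934.1 and 951, 800.3, 1011, 1047 and 1050, near at 0.14 (-0.12 to 0.40) although a dimmer probe set passed at 0.53, Dkk3 was near at -0.08, and Nptx1 (neuronal pentraxin 1, -0.34) was lower within the near margin (0.15 with dChip). Cpne4 (0.38, 0.02 to 0.75) and Grik4 (0.41, 0.08 to 0.73) neither passed nor were near, and Cpne4 passed with dChip (0.52). Wfs1 of CA1 varied widely, with 1037, 457.4 and 937.4 at 18 months, 742.2, 887.4, 683.1, 1247 and 1408 in restricted and 1093 to 2523 (median 1757) in old ad libitum rats, a difference of 0.31 ± 0.29 that was neither near nor past the test. A dimmer probe set of Wfs1 passed at 0.83 (adjusted p = 0.0271). Fibcd1 (0.33) and Pou3f1 (0.26) of CA1 and Calb1 (-0.29) and Dsp (0.25) of the dentate gyrus did not pass either, and 0 of 7 dentate genes did.

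Of 22 activity-regulated genes 6 were higher (27.3%, beside 15.5% of all genes), 0 lower and 12 near (54.5%). Arc, an immediate early gene of synaptic plasticity, read 175.8, 125.5 and 125.4 at 18 months, 335.9, 290.8, 279.9, 271.4 and 425.7 in restricted and 172.3 to 479.7 (median 251.7) in old ad libitum rats (1.09 ± 0.15). Nr4a1 rose by 0.83 and Egr4 by 0.46, but Egr4 had -0.14 with dChip. Plk2 and Rgs2 were near at 0.18 and -0.11, Plk2 with a call by dChip (0.21). Of 14 neurogenesis and proliferation genes, Dcx (doublecortin, of immature neurons) fell from 130.8, 148.6 and 145.7 to 92.99, 92.38, 98.92, 109.7 and 106.4 (-0.44 ± 0.08, dChip -0.40). Stmn1 fell by 0.46 and Tubb3 rose by 0.47, both without a call by dChip, and Pcna was near at -0.10.

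The cold-inducible RNA-binding genes Rbm3 and Cirbp were both near. Rbm3 read 1291, 1284 and 1539 at 18 months, 1473, 1314, 1199, 1258 and 1788 in restricted and 940.8 to 1292 (median 1114) in old ad libitum rats, with a restricted difference of 0.03 ± 0.13 (interval -0.26 to 0.31). Cirbp had 167.3, 172 and 177.1 and 191.5, 158.9, 191.1, 166 and 234 (0.11, -0.14 to 0.36), although it passed with dChip (0.31) and a dimmer probe set of it passed at 0.50. Restricted minus ad libitum at 28 months was 0.34 ± 0.10 for Rbm3 (adjusted p = 0.0319) and 0.41 ± 0.12 for Cirbp (0.0227).

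Of 35 lysosomal genes 7 were higher (20%, beside 15.5% of all genes), 1 lower and 29 near (82.9%). Psap (prosaposin, the precursor of sphingolipid activators) read 695.9, 846.6 and 697.8 and then 1979, 1610, 1754, 1616 and 1638 (1.19 ± 0.10, dChip 0.47), Grn (progranulin) rose by 0.43 and Neu1 by 0.45 (-0.01 with dChip), and Lamp1 (-0.02) and Lgmn (-0.03) were near. Among 35 antioxidant and detoxification genes 6 were higher (17.1%), 2 lower (5.71%) and 27 near (77.1%). Sod3, the extracellular superoxide dismutase, went from 31.55, 28.08 and 28.98 to 72.86, 102.1, 69.81, 79.15 and 64.98 (1.03 ± 0.12), Txnrd2 rose by 0.47 without a dChip call, Gpx8 fell by 0.51 (-0.23 with dChip), and Prdx3 (-0.04) and Gstm5 (-0.15) were near.

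Of 22 amyloid, tau and apolipoprotein genes 5 were higher (22.7%), 4 lower (18.2%) and 16 near (72.7%). Beside Aplp1, Aplp2 rose by 0.82, the alpha-secretase Adam10 fell by 0.53 (-0.26), Picalm was lower by 0.28 within the near margin without a dChip call, and Bin1 was near at 0.22 with a call by dChip (0.22). In the clock list 2 of 16 were higher (12.5%) and 2 lower (12.5%). The output factor Dbp was at 0.63, the repressor Nr1d1 at 0.42 (0.98 with dChip) and Cry1 at -0.57. Csnk1d was near at -0.05, although 3 of its 4 dimmer probe sets passed at 0.44, 0.34 and 0.33. The labels do not give the time of killing. Of 18 glucocorticoid-response genes 2 were higher (11.1%) and 4 lower (22.2%). Beside Ddit4, Fkbp4 rose by 0.67, while Errfi1 (-0.41) and Hsd11b1, which regenerates corticosterone (-0.32), were lower without a dChip call. Klf9 was near at -0.23. Vgf, a neuropeptide precursor, rose by 0.78 and Ntrk3, the receptor of neurotrophin 3, by 0.47. They were the 2 of 23 neurotrophin and neuropeptide genes that were higher (8.7%), beside 1 lower (4.35%). Both lost their call without ALMA replicate 2 (0.58 and 0.39), Ntrk3 had no dChip call, and Ntrk2 (TrkB) was near at 0.07 but passed with dChip (0.19).

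In the 14-array fit, 1311 genes of old ad libitum rats were higher than at 18 months (13.2%) and 743 lower (7.47%), and restricted rats had 1142 genes higher (11.5%) and 942 lower (9.47%) than old ad libitum rats. The DapX control differed in both comparisons, as given above. Of the largest rises of old ad libitum rats, 3 were Pfdn6, a prefoldin subunit (1.97), Cnih2, an auxiliary AMPA receptor subunit (1.48) and RT1-Bb. Restricted rats were at 1.49 for Pfdn6 and 2.84-fold above 18 months for Cnih2 (0.51 with dChip on the log2 scale), and their Pfdn6, 127.3, 96.43, 114, 95.33 and 106, lay between 18 months (25.83, 30.93 and 27.15) and old ad libitum rats (133.2 to 171.6 (median 161)), although dChip gave 0.29 with no call. Among the falls, the uncharacterized locus LOC683655 was at -1.96 in old ad libitum rats with 6.719 to 12.02 (median 8.68), against 59.09, 53.6 and 157.3 at 18 months and 8.017, 43.7, 39.25, 53.63 and 40.82 in restricted rats, where it did not pass (adjusted p = 0.0838) but did with dChip (-2.77). Bad, a pro-apoptotic relative of BCL2, was at -0.85 and in restricted rats at -0.39, which did not pass, while dChip gave 0.34 (adjusted p = 0.00278). The restricted value of Bad in the series values depended on 1 array, CRO_GP replicate 2, with 1046. The other restricted arrays read 412.6 to 513.1, below the 630.3 to 794.5 of 18 months.

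Among the restricted rats, poor and good performers (2 and 3 arrays) differed in 0 of 18625 probe sets (limma, 0%), 1514 having an unadjusted p under 0.05. Poor minus good was -0.14 for Mapre3 and -0.09 for Igf1r. So few arrays leave differences in this contrast poorly bounded.

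The same contrast was tested across regions, with the animal as a random block. Restricted 28-month differed from 18-month rats in 3742 probe sets in CA1 (20.1%) and 5622 in the dentate gyrus (30.2%). An interaction with region passed in 3 probe sets (0.0161%), 2424 having an unadjusted p under 0.05, and the CA3 difference parted from the mean of the other regions in 0 (0%), with 1014 at an unadjusted p under 0.05. Without ALMA replicate 2 of CA3 the counts were 6 and 0. Largest rises in CA3 were large elsewhere too: Mapre3 had 1.76 in CA1 and 1.80 in the dentate gyrus, and Pfkl 1.07 and 1.81. Rpl35a had -0.08 and -0.45, and Gria4 -0.29 and -0.40, against -0.80 in CA3. No difference called here can be said to be particular to CA3 from this test.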

How the data were processed

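RNA of CA1, CA3 and the dentate gyrus, cut by razor blade from rat hippocampus and extracted with Trizol, was hybridized to 1 array per region and animal, per the labels' protocols. The main values are the deposited intensity values of the series, made by software not given in the sources used here. From dChip, the authors' deposited tables hold a second intensity per probe set, and another kind of value beside it, the presence calls. Values were taken to log2 after adding 16, and 18625 of 31099 probe sets above the 40th percentile of mean level were tested with limma 3.58.1 (statmod 1.5.0, R 4.3.3, checked on simulated data) with Benjamini-Hochberg adjustment, on 5 restricted and 3 ad libitum arrays. Arrays of a class came from separate animals, except for the code that ALMA replicates 1 and 2 share. Precision is limited by their number. Names came from the deposited tables and RefSeq, and 11567 probe sets have none here. Restricted and 18-month dChip signals were joined through the 6 old ad libitum arrays, without counting the error of that step. Replicate numbers were not taken to pair arrays: 7 same-numbered pairs had a mean correlation of deviations of -0.0861 (-0.247 to 0.0612), 14 other pairs 0.0435. These deviations are from the means of classes of few arrays, which ties the correlations to each other, so they cannot show that pairing is absent. Named genes are, beside the region markers, those with the 12 largest rises and falls that did not overlap and were called present in the higher class, up to 3 past the test and 2 near genes per list, and the 5 largest old ad libitum rises and falls by the same rule; part of the genes so chosen are named, and some are not reported here. Members and the 37 lists were chosen with earlier results of these data known. Alternatives covered pseudocount, filter, scaling, covariates, arrays and signal.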

Additional observations from a re-analysis of the deposited data

Results flagged for a closer look

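In 10 of 162 genes (6.17%) 1 array lay far from the other 4 of the restricted class, and chance alone gives about 1 in 20. In CRO_PP replicate 2, Mta1 read 48.34 (others 80.99 to 96.89), Etl4 151.1 (170.9 to 179.4), Kcnip2 1252 (1097 to 1135) and Pcna 679.2 (783.4 to 808.1). In CRO_GP replicate 1, Slc17a6 read 78.02 (113 to 118.9), LOC683655 8.017 (39.25 to 53.63) and Cspg4 62.1 (80.15 to 85.95). In CRO_GP replicate 2, Bad read 1046 (412.6 to 513.1), and in CRO_GP replicate 3 Cacnb1 read 210 (160.9 to 172.2) and Rpl7a 2547 (2726 to 2750).

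In 3 probe sets the difference between restricted 28-month and 18-month rats differed between regions by an interaction test (limma). Crim1 had a difference of -0.35 in CA3 (-0.3505), 0.50 in CA1 and -0.73 in the dentate gyrus (adjusted p = 0.011). Jak1 had 0.5473 in CA3, -0.16 in CA1 and 0.52 in the dentate gyrus (adjusted p = 0.0384). An unnamed probe set had 0.9729 in CA3, 0.18 in CA1 and 0.93 in the dentate gyrus (adjusted p = 0.0447).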

How the results depend on the processing

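Of 2529 values of the 110 genes past the test under other settings, 2237 kept direction and call, 271 lost the call and 21 changed sign, and 44 genes were called under every setting. The 4168 calls (2593 higher, 1575 lower) became 1681 (1245, 436) with CRO_PP replicate 4, 2045 (1551, 494) with restricted poor performers only and 2665 (816 lower) with good performers only. Median centring gave 2881 lower and quantile normalization 1853. Far genes, 115 in the main setting, were 199 with pseudocount 1 and 43 with 64. Near genes were 2764 in place of 7795 when the 1.5-fold margin was narrowed, and so no longer most of the 9943. Replicate numbers as a block (replicate block) left 3113 calls, 985 of them lower, against 1575. Leaving out 1 array gave 2815 to 4114 calls, 1960 to 2638 higher, 855 to 1486 lower, 7131 to 7632 near and 108 to 124 far genes; lower calls were 958, 972 and 855 without ALMA replicates 1, 2 and 3 and 1003 without CRO_GP replicate 3. The region interaction was 6 without ALMA replicate 2. Signs reversed after quantile normalization in Gja1 (0.0246) and Nptx1 (0.0233), and with dChip, from the full and the CA3 diet table, in Gabrb1 (0.0252, 0.0174), Slc1a3 (0.0308, 0.0259), Ndrg2 (0.0488, 0.0435), Gja1 (0.0477, 0.0419), Eng (-0.0246, -0.0386), Rpl7a (0.0510, 0.0450), Neu1 (-0.00732, -0.0164), Egr4 (-0.14, -0.18), Nptx1 (0.15, 0.10) and, from the full table, Rpl22 (0.00373). The cause was not tested. With every probe set of a gene averaged, the list medians moved from -0.04 to 0.11 for astrocytes and from -0.23 to -0.13 for oligodendrocytes. Few arrays limit the precision of every difference.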
